A study of Homo sapiens with 4 samples.

Results

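Kinesins are the motor proteins that use ATP to move along microtubules or to take them apart at their ends. The genes described here were found by name, as every gene probe on the array whose name is KIF or KIFC, a number and, where present, the letter A, B or C. This gave 41 genes with 64 probes, of 43317 gene names on the array, and all 41 names are current symbols in the RefSeq table for GRCh38.p14. A gene was represented by its brightest probe, the one with the highest mean log2 signal over the 4 arrays. Neither choice used a difference between groups. The measurements were made with 1-colour Agilent arrays on total RNA from 2 human cancer cell lines, HCT116 (colorectal) and A549 (lung), each transfected with the reagent Dharmafect1. The 4 groups were HCT116 with the negative control RNA NC1, HCT116 with the microRNA miR-891b, A549 with NC1 and A549 with miR-891b, with 1 array in each. The time from transfection to harvest is not given in the sources used here. With 1 array on each side, differences inside a line come without a replicate check and without a p-value.

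In a dividing cell, kinesins push the spindle poles apart, shorten and stabilise microtubules at the chromosomes, and build the midzone at which the cell is cut apart. Most genes of this kind are transcribed in G2 and mitosis and are nearly silent in resting cells. Other kinesins carry vesicles, organelles and mRNA in every phase of the cell cycle, and a further set works in cilia. The 41 genes were sorted by these known roles into 10 spindle and chromosome kinesins, 4 cytokinesis kinesins, 14 cargo transport kinesins, 7 cilium and Hedgehog kinesins and 6 others. The first 2 groups, 14 genes together, are called the division kinesins below. KIF4B, an intronless copy of KIF4A, was not found under that name on the array, and RNA of either copy could bind the KIF4A probes.

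Levels are log2 signals minus the array's 75th percentile, so a level of 0 is the signal at that percentile of the gene probes. They can be compared between arrays for a gene, but not between genes, whose probes differ in brightness. The probes well above background made up between 44.7% and 50.3% of 58201 gene probes on each array, and no gene spot was saturated. Both arrays of a line shared a slide, so line and slide cannot be told apart. Probes printed at 5 or more spots gave a median SD of the log2 difference between the arrays of a line of 0.061 in HCT116 (276 probes) and 0.071 in A549 (287 probes). This spread covers spots only, not cultures. On the NC1 arrays the markers of the lines went with their labels. Of the 6 A549 markers, 5 were well above background in both lines with NC1 and at least 2-fold higher in A549, with a median difference of 7.89. ALDH1A1, the remaining marker, was too dim in HCT116 to pass. All 4 HCT116 markers were lower in A549, with a median difference of -5.07. With miR-891b some markers moved past 2-fold. AKR1B10, an A549 marker, was higher by 4.47 in HCT116 (-2.29 and 2.18), still below its 9.69 in A549 with miR-891b. In A549, KRT81 changed by -1.64, ALDH3A1 by -1.17 and the HCT116 marker CLDN3 by 1.03. The part of these shifts in the kinesin values was not tested. Of 6 markers of fibroblasts, which the growth protocol also mentions, 2 were well above background on each HCT116 array and 3 on each A549 array, while COL1A2, COL3A1 and DCN were not on any array.

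Measured, below, means that the brightest probe stood well above background with NC1 and with miR-891b in the line named. This held for 34 of the 41 kinesins in A549 and 32 in HCT116, and for 30 in both. KIF2B, KIF1A and KIF6 were not well above background on any array. The first comparison asked how kinesin mRNA differed between A549 cells with miR-891b and with NC1. Of the 34 measured kinesins, 13 were lower by 2-fold or more with miR-891b, where 5.57% of 21337 measured genes were, and 1 was at least 2-fold higher, where 4.01% were. The median change (miR-891b minus NC1, on the log2 scale) was -0.49 over the kinesins and -0.06 over all measured genes.

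The lower kinesins were mainly those of cell division. Of 13 measured division kinesins, 11 were lower by 2-fold or more in A549, and all 13 changes were negative, with a median of -1.60 and a range from -2.05 to -0.21. Of the 21 measured kinesins outside these groups, 2 were at least 2-fold lower and 1 was higher, and their median change was -0.05. Mitotic genes were known from earlier work on these data to be lower in A549 with miR-891b, so the direction of the division kinesins is not independent evidence of it. Fewer dividing cells and less RNA per cell cannot be told apart in RNA from whole cultures.

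**Figure D1:**
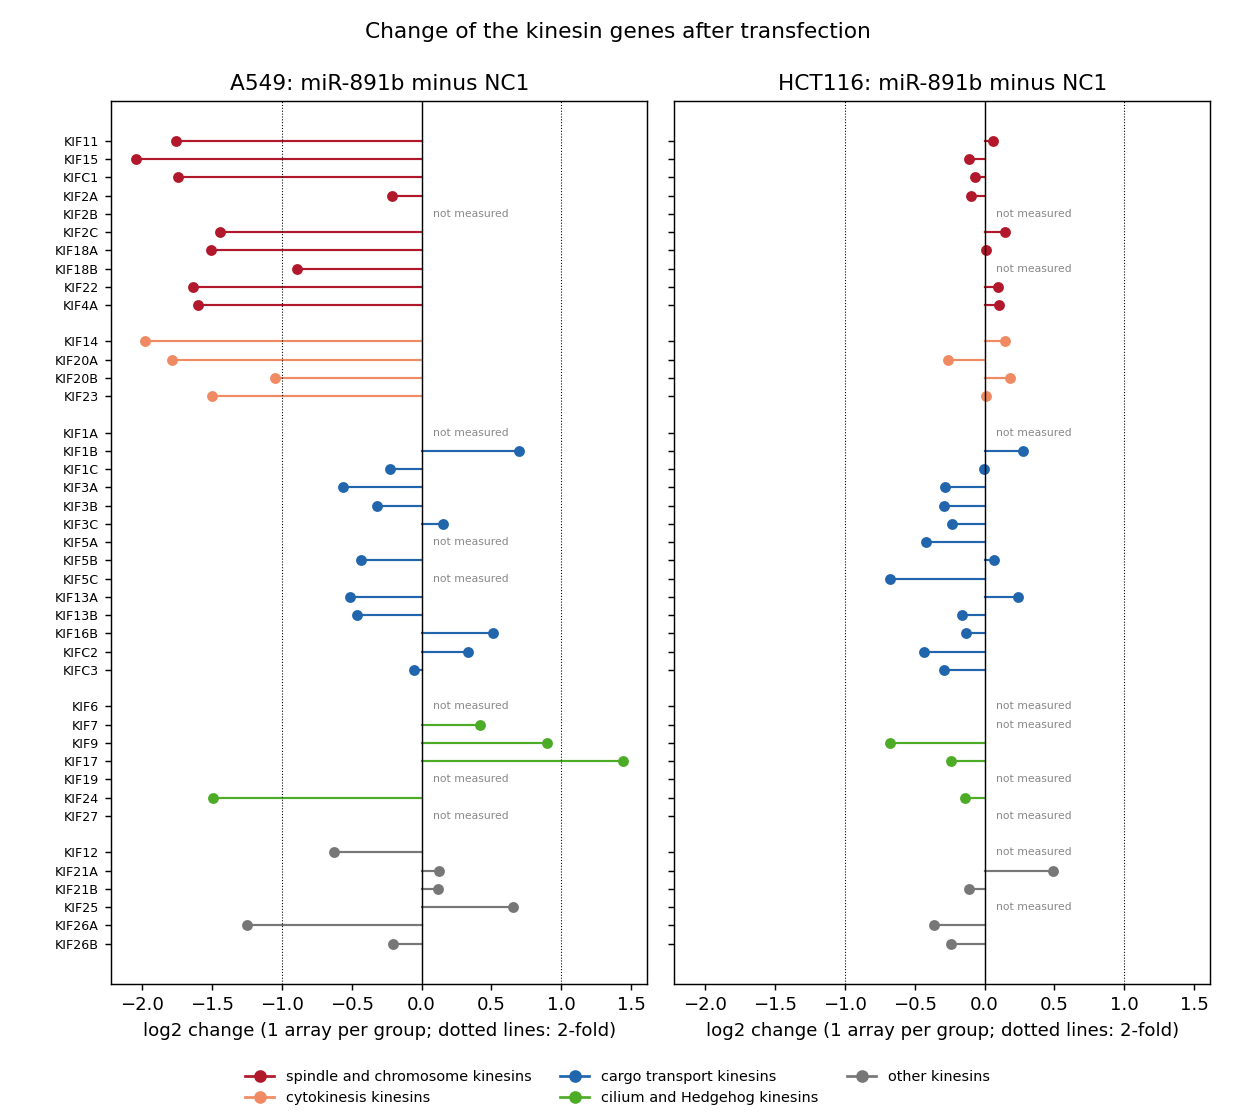
Log2 change from NC1 to miR-891b for each kinesin gene measured in A549 (left) and HCT116 (right), coloured by role, with 1 array per group and dotted lines at 2-fold. The measured division kinesins lie to the left in A549, down to -2.05, and within 0.26 of 0 in HCT116.

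Among the spindle motors, KIF11 (probe at chr10:94414627-94414686, hg19), the bipolar motor Eg5 that slides spindle poles apart, had a level of 4.04 with NC1 and 2.27 with miR-891b in A549, a change of -1.76. In HCT116 its levels were 2.91 and 2.97. KIF15, which backs up KIF11 in holding the spindle open, went from 1.97 to -0.08 in A549, the most negative change of all measured kinesins (-2.05), and stood at 1.97 and 1.86 in HCT116. On the linear scale KIF15 signal in A549 with miR-891b was 24.2% of that with NC1. KIFC1, a motor that runs to the minus end and focuses spindle poles, was at 1.00 and -0.74 in A549 (change -1.74) and at 1.94 and 1.87 in HCT116. For these 3 motors the A549 miR-891b array was the lowest of the 4 arrays, and the HCT116 arrays differed by 0.11 or less.

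The microtubule depolymerases did not all change. KIF2C, which removes wrongly attached microtubules at the centromere, had levels of 4.23 and 2.79 in A549 (change -1.45) and of 5.03 and 5.18 in HCT116. Its relative KIF2A, which acts at spindle poles and also in non-dividing cells such as neurons, was at 2.18 and 1.97 in A549 and at 2.07 and 1.97 in HCT116. The KIF2A change of -0.21 in A549 was the smallest of the measured division kinesins. KIF18A, which damps chromosome movements at metaphase, went from 2.45 to 0.94 in A549 (change -1.51), with 2.11 and 2.12 in HCT116. KIF18B, which controls the length of astral microtubules, was dim, with -2.89 and -3.78 in A549 (change -0.89). In HCT116 its levels were -3.40 and -3.28, and the miR-891b spot was not well above background.

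The chromokinesins, which bind chromosome arms, were both lower in A549. KIF22 had levels of 3.31 and 1.67 there (change -1.64) and of 3.81 and 3.90 in HCT116. KIF4A, which also sets the length of the anaphase midzone, went from 2.98 to 1.38 in A549 (change -1.60) and was at 2.63 and 2.74 in HCT116. In both genes the A549 miR-891b array lay below the other 3 arrays.

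All 4 cytokinesis kinesins were at least 2-fold lower in A549. KIF14, which brings citron kinase to the midbody, had levels of 3.18 and 1.21 (change -1.98), against 1.97 and 2.12 in HCT116. KIF20A, which carries the chromosomal passenger complex to the midzone, went from 2.54 to 0.75 (change -1.79), with 2.86 and 2.60 in HCT116, the largest change in size of the division kinesins in that line. KIF23, the motor subunit of the centralspindlin complex, was at 5.40 and 3.90 in A549 (change -1.50) and at 5.18 and 5.20 in HCT116. KIF20B, which acts late in cytokinesis, had the smallest change of the 4, from 1.64 to 0.59 (-1.05), with 1.08 and 1.26 in HCT116. The KIF20B change was -0.99 after median scaling, just short of 2-fold, and -1.01 after quantile normalization. With normexp background correction and quantile normalization together it was -0.74.

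**Figure D2:**
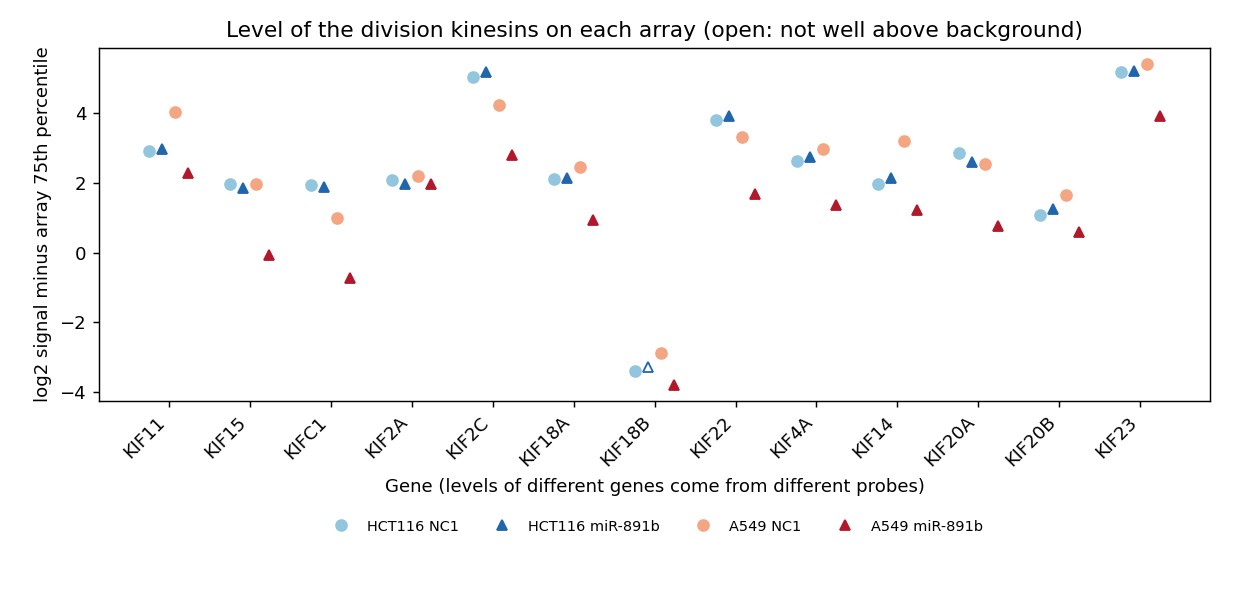
Log2 signal minus the array's 75th percentile of the measured division kinesins on the 4 arrays, with open symbols where the spot was not well above background. For every gene except KIF2A the A549 miR-891b array is the lowest of the 4, while the HCT116 arrays lie within 0.26 of each other.

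The division kinesins were also compared between the lines in control cells. The A549 minus HCT116 difference with NC1 ran from -0.93 (KIFC1) to 1.21 (KIF14) over 13 division kinesins, with a median of 0.22. KIF14 and KIF11 (1.12) were the only 2 of the 13 past 2-fold, both higher in A549. Over all genes measured with NC1, 11.1% were at least that much higher in A549 and 16.2% lower, so this count is near the background. With miR-891b the same difference was -0.92 for KIF14 and -0.69 for KIF11, so the order of the lines turned for both genes. For KIF15 the lines were level with NC1 (1.97 in each), and with miR-891b A549 was below HCT116 by a difference of -1.94.

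Genes that work with the division kinesins were taken from a list of 15 (among them midzone proteins, the chromosomal passenger complex and mitotic kinases). In A549, 14 of the 15 were at least 2-fold lower, where 5.57% of all measured genes were. The median change of the 15 was -1.60, with a range from -2.33 to -0.80. HMMR, a spindle microtubule protein, had the most negative change (-2.33). PRC1, the midzone crosslinker that recruits KIF4A, went from 5.82 to 4.13 (-1.69). AURKB, the kinase of the passenger complex that KIF20A carries, went from 1.58 to -0.35 (-1.93), and RACGAP1, the partner of KIF23 in centralspindlin, from 3.51 to 2.30 (-1.21). CIT, the kinase brought by KIF14, changed by -1.26, and TPX2, which binds KIF11 on the spindle, by -1.70. ECT2 changed by -1.46, ANLN by -1.59, NUSAP1 by -1.54, AURKA by -1.72, BIRC5 by -1.49, CDCA8 by -1.77, PLK1 by -1.60 and NDC80 by -1.90. INCENP (-0.80) was the member short of 2-fold. In HCT116 none of the 15 was past 2-fold, where 0.843% of all measured genes were lower and 1.16% higher by that much. The changes of the 15 ran there from -0.20 to 0.22 with a median of 0.07. The BIRC5 and CENPE spots lay in an area with stray signal on at least 1 array. CENPE, the kinetochore kinesin whose name falls outside the pattern, was at 2.45 and 0.92 in A549 (-1.53) and at 1.80 and 1.90 in HCT116. STARD9, another kinesin under another name, changed by 0.45 in A549 and -0.45 in HCT116.

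The promoters of the kinesins were then searched for letters that the choice of genes had not used. Many genes of G2 and mitosis carry a cell cycle genes homology region (CHR) near the start of transcription, bound by the DREAM and MuvB complexes, and CCAAT boxes bound by NF-Y upstream of it. The CHR was searched as TTTGAA or TTCGAA, and the CCAAT box as CCAAT, on both strands, in the 300 bases from 250 before to 50 after each RefSeq start on GRCh38.p14. These words were chosen with the A549 changes known. The table held promoters for all 14 division kinesins and for 19 of the other 27. A CHR word was present in 10 of the 14 division kinesins (71.4%) and in 2 of the 19 others (10.5%), where 19.5% of all 27305 genes had it. A CCAAT word was present in 10 of the 14 (71.4%) and in 7 of the 19 (36.8%), against 39.7% of all genes, and both words in 9 of the 14 (64.3%) against 9.02% of all genes. A match is a description of letters and shows neither binding nor a cause.

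The stretches below run 5′ to 3′ on the gene's strand from 60 bases before the start to 10 after it, a window chosen after the matches had been seen, and CHR words are in capitals. Within this window 9 of the 14 division kinesins and 4.45% of all genes had a CHR word. The first set is shown because these genes have a CHR word in the window. All but KIF18B were past 2-fold in A549, and KIF24 is the only cilium kinesin among them.
KIF11 (chr10:92593070-92593139, plus strand): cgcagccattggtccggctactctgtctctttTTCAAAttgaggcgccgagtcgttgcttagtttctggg
KIF15 (chr3:44761734-44761803, plus strand): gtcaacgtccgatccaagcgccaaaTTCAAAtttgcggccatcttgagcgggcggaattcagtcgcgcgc
KIFC1 (chr6:33391763-33391832, plus strand): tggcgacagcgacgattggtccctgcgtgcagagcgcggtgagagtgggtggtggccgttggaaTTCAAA
KIF18A (chr11:28108147-28108216, minus strand): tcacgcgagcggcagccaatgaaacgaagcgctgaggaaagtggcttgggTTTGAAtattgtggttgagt
KIF18B (chr17:44947764-44947833, minus strand): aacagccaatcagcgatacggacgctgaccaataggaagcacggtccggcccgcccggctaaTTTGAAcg
KIF22 (chr16:29790691-29790760, plus strand): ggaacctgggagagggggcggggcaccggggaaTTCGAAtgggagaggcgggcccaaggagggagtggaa
KIF4A (chrX:70290044-70290113, plus strand): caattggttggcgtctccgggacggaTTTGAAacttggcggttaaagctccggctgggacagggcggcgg
KIF14 (chr1:200620742-200620811, minus strand): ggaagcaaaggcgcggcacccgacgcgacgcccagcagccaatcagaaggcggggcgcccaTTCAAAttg
KIF23 (chr15:69414289-69414358, plus strand): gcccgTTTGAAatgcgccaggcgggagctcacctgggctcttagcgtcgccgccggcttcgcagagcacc
KIF24 (chr9:34329259-34329328, minus strand): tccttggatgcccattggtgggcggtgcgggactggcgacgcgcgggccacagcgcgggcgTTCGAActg

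The second set is shown for contrast and has no CHR word in the window. KIF2C and KIF20A were at least 2-fold lower in A549, while KIF2A and the transport motor KIF5B were not. The windows of KIF2C and KIF20A hold the letters tttaaa, which were not among the words searched.
KIF2C (chr1:44739777-44739846, plus strand): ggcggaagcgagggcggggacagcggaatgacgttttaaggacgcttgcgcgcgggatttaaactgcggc
KIF20A (chr5:138179052-138179121, plus strand): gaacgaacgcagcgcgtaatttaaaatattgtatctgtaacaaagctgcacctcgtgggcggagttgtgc
KIF2A (chr5:62306146-62306215, plus strand): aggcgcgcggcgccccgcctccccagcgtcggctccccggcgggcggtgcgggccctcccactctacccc
KIF5B (chr10:32056416-32056485, minus strand): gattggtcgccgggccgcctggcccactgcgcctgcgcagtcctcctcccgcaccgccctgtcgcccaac

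The CHR words began between 55 bases before the start (KIF23) and 5 bases after it (KIFC1). They began at -28 in KIF11, -35 in KIF15, -10 in KIF18A, -27 in KIF22 and -34 in KIF4A, counted from the annotated start with no position 0. In KIF14 and KIF24 the word began at 2, and in KIF18B at 3. KIF20B had its words downstream of the printed window, at 25 and 31. KIF5B had a CHR word farther upstream, at -140. KIF20A lacked the searched CHR words but had CCAAT words at -94 and -67. KIF2C and KIF2A had neither a searched CHR word nor a CCAAT word in the 300 bases. Other forms of the CHR were not searched, so a gene without these words was not shown to lack a CHR. Of the 13 kinesins at least 2-fold lower in A549, 10 had a CHR word in the 300 bases (76.9%), and of the 16 other measured kinesins with a promoter in the table, 2 had it (12.5%). Since 11 of these 13 are division kinesins, this split largely repeats the split by role and is not separate evidence.

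**Figure D3:**
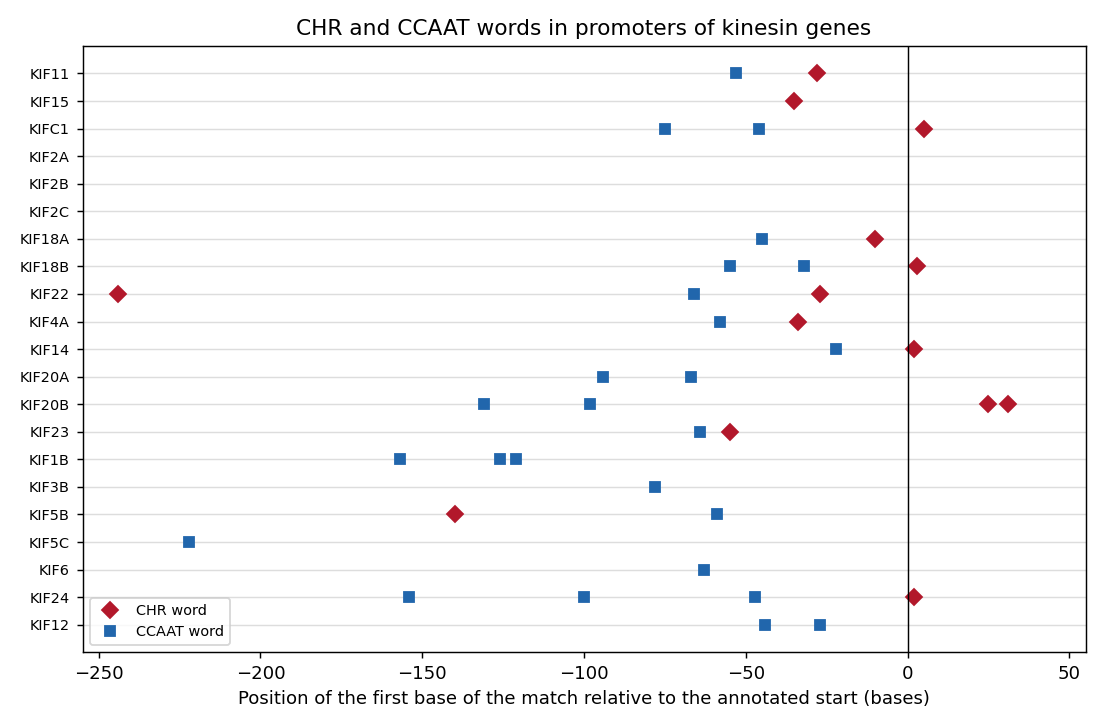
Position of each CHR word (diamonds) and CCAAT word (squares) relative to the annotated start, in bases, for the division kinesins and for other kinesins with a match. The CHR words of KIF11, KIF15, KIF18A, KIF22, KIF4A and KIF14 lie between -35 and 2, with CCAAT words upstream in each of these except KIF15. KIF22 has 2 annotated starts, and its words at -27 and -244 are the same site.

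The transfected microRNA was looked for in the same way. Mature hsa-miR-891b (RefSeq, GRCh38.p14) is shown with its seed, bases 2 to 8, in capitals, because the seed sets which transcripts it can pair with.
hsa-miR-891b (chrX:146001100-146001121, minus strand): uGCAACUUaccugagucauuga
The site that pairs with this seed reads AAGTTGC in a transcript. It occurred in 0 of the 64 kinesin probes and in 229 of all 58201 gene probes (0.393%). The probes are 60 bases long and cover a small part of each transcript, and the rest of the kinesin transcripts was not analysed here.

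In HCT116 the kinesins changed little. None of the 32 measured kinesins was past 2-fold, where 0.843% of 19104 measured genes were lower by that much and 1.16% higher, so that a count of 0 among 32 is near the background. Their median change was -0.11, against -0.04 over all genes. The 12 measured division kinesins had changes from -0.26 (KIF20A) to 0.18 (KIF20B), with a median of 0.04. The changes of the division kinesins in A549 minus those in HCT116 ran from -2.13 (KIF14) to -0.11 (KIF2A). These differences were not tested, since each line has 1 array per group. The 2 HCT116 changes largest in size were those of KIF5C (-0.68) and KIF9 (-0.68). Over the 20 measured kinesins outside the division groups, 16 changes were negative, with a median of -0.23. Of all measured genes in HCT116, 10595 of 19104 changes were negative.

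By their brightest probes, none of the measured cargo transport kinesins passed 2-fold in either line. Of all measured genes, 5.57% were lower and 4.01% higher by that much in A549, and 0.843% and 1.16% in HCT116. The counts of 0 among these kinesins are thus near the background. In A549 the 11 measured ones changed by between -0.56 and 0.69, with a median of -0.23 that was 0.01 under quantile normalization, and in HCT116 the 13 measured ones changed by between -0.68 and 0.27, with a median of -0.23. KIF5B, the conventional kinesin heavy chain found in all tissues, had levels of 4.89 and 4.45 in A549 and of 4.72 and 4.78 in HCT116. KIF3A and KIF3B, which pair into the motor of intraflagellar and vesicle transport, were at 3.33 and 2.77 and at 3.68 and 3.35 in A549, and at 2.87 and 2.59 and at 3.62 and 3.32 in HCT116. Both were thus lower with miR-891b in each line, by less than 2-fold. KIF1C, a fast carrier of vesicles and mRNA, stood at 6.91 and 6.68 in A549 and at 7.37 and 7.36 in HCT116, and its A549 change of -0.23 turned to 0.11 under quantile normalization (0.10 with normexp correction before it).

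KIF1B, which carries mitochondria and synaptic vesicle precursors, had the highest change among transport kinesins in A549, from 2.35 to 3.05 (0.69), and went from 3.23 to 3.51 in HCT116. Its 4 measured probes disagreed in A549, with changes of 0.69, 1.01, -0.26 and -0.41. The probe at -0.41 lay in an area with stray signal on the HCT116 NC1 array but not on the A549 arrays. KIF16B, a motor of early endosomes, also depended on the probe. The brightest probe (chr20:16252955-16253014, hg19) was at 2.49 with NC1 in A549 and higher by 0.51 with miR-891b. The other (chr20:16347791-16347850) went from 1.60 to 0.48 (-1.13), and its spot lay in an area with stray signal on HCT116 miR-891b but not on the A549 arrays. In HCT116 these probes changed by -0.13 and 0.04. Whether the probes see different transcripts was not tested.

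The other transport kinesins differed in direction. KIF13A, which moves cargo from the Golgi and recycling endosomes, was at -1.84 and -2.35 in A549 and at -2.40 and -2.16 in HCT116. Its relative KIF13B was at 4.51 and 4.04 in A549 and at 2.91 and 2.75 in HCT116. KIFC3, a minus-end motor of epithelial junctions and the Golgi, was at 0.73 and 0.68 in A549 and at -0.59 and -0.89 in HCT116. In A549 these 3 were lower with miR-891b by 0.51 or less, and the KIFC3 change of -0.05 turned to 0.01 under quantile normalization and median scaling. KIFC2 went from 0.28 to 0.61 in A549 and from 2.21 to 1.77 in HCT116, and KIF3C from 2.64 to 2.80 and from -0.59 to -0.82. Both of these had a positive change in A549 and a negative one in HCT116.

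Over all kinesins with several measured probes, the probes had the same sign in 9 of 12 genes in A549 and in 7 of 9 in HCT116. For the division kinesins the sign was shared in 4 of 4 genes in A549 and in 3 of 4 in HCT116. The KIF22 probes differed in sign in HCT116, with changes of 0.10, -0.10 and -0.20. In A549 the KIF4A probes changed by -1.64 and -1.60, those of KIF20B by -1.10 and -1.05 and those of KIF23 by -1.50 and -1.38. KIF22 was the exception in size in A549. Its 2 brighter probes changed by -1.64 and -1.54, and a dim one (chr16:29810045-29810104, hg19) by -0.29, from -1.37 to -1.66.

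**Figure D4:**
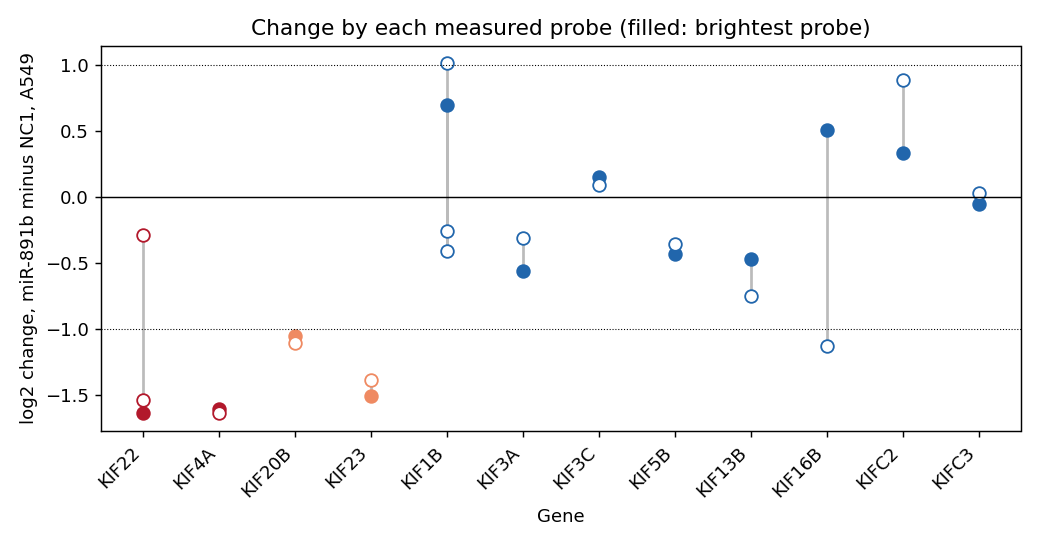
Log2 change from NC1 to miR-891b in A549 by each measured probe, for kinesins with 2 or more of them, with the brightest probe filled and dotted lines at 2-fold. The probes of KIF4A, KIF20B and KIF23 lie together below -1, whereas those of KIF1B and KIF16B lie on both sides of 0.

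The light chains and adaptors that couple transport kinesins to cargo were taken from a list of 16 names, of which 14 were found. Of the 13 measured in A549, none was past 2-fold, where 5.57% of all measured genes were lower and 4.01% higher by that much. Of the 13 changes 11 were positive, with a median of 0.25, while 11865 of 21337 changes over all genes were negative. KLC1, a light chain of conventional kinesin, changed most (0.82), followed by KLC4 (0.58) and MAPK8IP1 (0.44), a scaffold that binds light chains. KLC3 was not well above background with miR-891b in A549. In HCT116 the median was 0.02 over 13 genes, from -0.79 (MAPK8IP2) to 0.39 (KLC1). None was past 2-fold there, where 0.843% of all measured genes were lower and 1.16% higher by that much. Dynein and dynactin, the motor and its activator that move cargo the other way, had 17 of 18 genes measured in each line. Their median change was -0.15 in A549 and 0.09 in HCT116, and DYNLL2, a light chain shared with myosin, was the only 1 past 2-fold (-1.22 in A549). The counts past 2-fold of both lists are thus near the background in each line.

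The cilium and Hedgehog kinesins went in both directions in A549. KIF24, which restrains cilium growth at the mother centriole of cycling cells, had levels of 0.93 and -0.56 (change -1.49), against -0.23 and -0.37 in HCT116. KIF17, a motor of cilia and dendrites, went from -3.17 to -1.73 in A549 (1.44), the only kinesin at least 2-fold higher, and from -2.01 to -2.25 in HCT116. KIF9, known from sperm flagella and motile cilia, went from -3.23 to -2.33 in A549 (0.90) and from -2.07 to -2.75 in HCT116. KIF17 and KIF9 are dim, and with normexp background correction and quantile normalization their A549 changes were 0.26 and 0.14. The KIF24 change was -0.89 in that setting. KIF7, the scaffold of Hedgehog signalling at the cilium tip, was well above background only in A549, at -3.41 and -2.99.

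KIF27 was well above background on the A549 miR-891b array only (-3.35, against -3.80 with NC1, an observed ratio of 1.37-fold). Its spot lay in an area with stray signal on that array, where 22.1% of the nearby spots without such signal on the remaining arrays were well above background. KIF19, a depolymerase that limits cilium length, was well above background on the HCT116 NC1 array only, at -2.30, with -3.13 on HCT116 miR-891b, where its spot lay in such an area (27.4%). The part of the stray signal in these values was not tested. None of the division kinesin probes lay in an area of this kind.

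Of the remaining kinesins, KIF26A, a kinesin without motor activity that acts in signalling, was at -1.42 and -2.68 in A549 (change -1.25) and at 0.71 and 0.34 in HCT116. Its A549 change was -0.31 with normexp and quantile normalization. KIF26B was at -1.28 and -1.48 in A549 and at -0.73 and -0.97 in HCT116. Both atypical kinesins were thus lower with miR-891b in each line, and only KIF26A in A549 passed 2-fold. KIF21A, which caps microtubule growth at the cell cortex, was at -0.24 and -0.11 in A549 and at -0.52 and -0.03 in HCT116, where its change of 0.49 was the highest of the measured kinesins. KIF21B was at -1.58 and -1.47 in A549 and at -0.50 and -0.62 in HCT116. KIF12, known from kidney epithelium, was at -0.56 and -1.19 in A549. In HCT116 it was at -2.95 with NC1 and was not well above background with miR-891b. KIF25 was well above background only in A549, at -1.99 and -1.34.

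The control cells of the lines were compared next, without a test. Of 32 kinesins well above background on both NC1 arrays, 8 were at least 2-fold higher in A549, where 11.1% of 19218 genes were, and 5 at least 2-fold lower, where 16.2% were. The higher ones were KIF3C (difference 3.24), KIF12 (2.39), KIF16B (1.80), KIF13B (1.59), KIFC3 (1.32), KIF14 (1.21), KIF24 (1.17) and KIF11 (1.12). The lower ones were KIF26A (-2.13), KIFC2 (-1.93), KIF9 (-1.17), KIF17 (-1.16) and KIF21B (-1.08). With normexp and quantile normalization the counts were 5 higher and 2 lower, and the shares of all genes in that setting are not given here. The difference was then 0.68 for KIF12, 0.70 for KIFC3 and 0.68 for KIF24, and -0.20 for KIF9, -0.22 for KIF17 and -0.45 for KIF21B.

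Among the conventional kinesin heavy chains, the brightest probes of KIF5A and KIF5C separated the lines and that of KIF5B did not. KIF5A and KIF5C, which are enriched in neurons, were well above background on both HCT116 arrays and on neither A549 array. KIF5C was at 0.62 and -0.06 in HCT116, and KIF5A at -0.85 and -1.27. With the weakest signal that counted as well above background on the dim array taken as a bound, KIF5C was at least 23.8-fold lower in A549 than in HCT116 with NC1 and at least 14.6-fold lower with miR-891b. By its brightest probe alone, KIF5A was at least 8.58-fold and at least 6.32-fold lower. KIF5B, the remaining heavy chain, differed by 0.17 with NC1. KIF25 was at least 2.94-fold higher in A549 with NC1 and at least 3.48-fold higher with miR-891b.

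**Figure D5:**
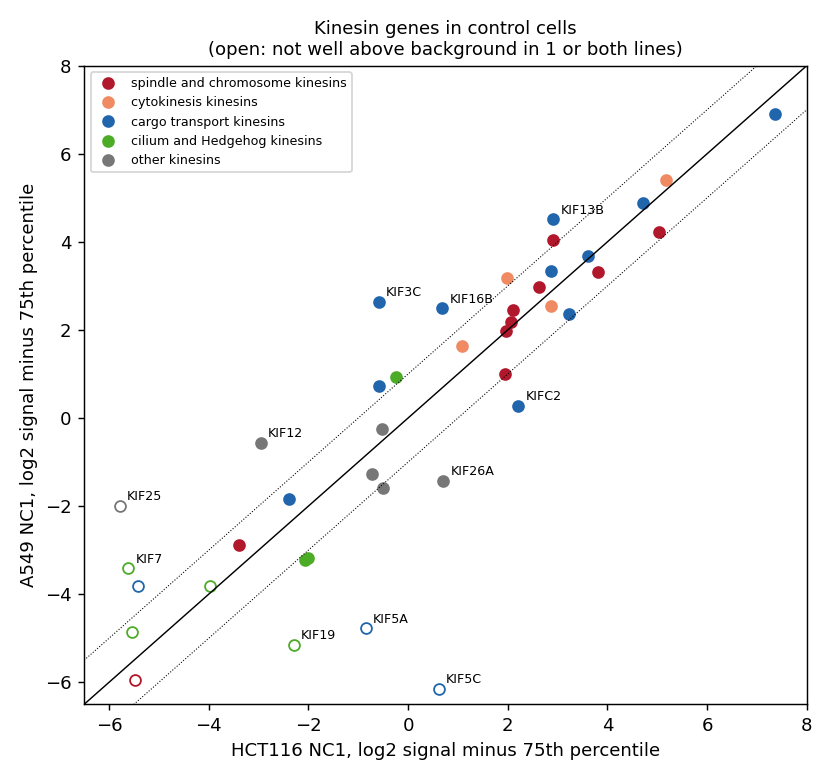
Level of each kinesin gene in control cells, HCT116 on the x axis and A549 on the y axis, as log2 signal minus the array's 75th percentile, with dotted lines at 2-fold and open symbols where a line was not well above background. The measured division kinesins differ by -0.93 (KIFC1) to 1.21 (KIF14) from the diagonal, KIF3C lies above it (difference 3.24), and KIF5A and KIF5C lie far below it.

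Finally, HCT116 and A549 were treated as replicates of the transfection in limma, with the line as a covariate, which leaves 1 residual degree of freedom. No gene of 22710 passed a Benjamini-Hochberg adjusted p of 0.05 (0%), and 1214 had an unadjusted p under 0.05. None of the 36 kinesins in the fit passed it, and 0 had an unadjusted p under 0.05. Their limma adjusted p-values ran from 0.793 to 0.998. The lowest unadjusted p among them was that of KIF26A (mean change -0.81, SE 0.32, lower in 2 of 2 lines). For KIF11 the mean change over the lines was -0.85 with an SE of 0.50, which holds a change of -1.76 in A549 and 0.06 in HCT116.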

How the data were processed

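Total RNA (100 ng per sample, per the labels) was labelled with Cy3 and hybridised to 1-colour arrays, with 1 array in each of 4 groups taken from the sample titles. Per the file headers and the submitters' processing notes, spots were read with Feature Extraction 11.5.1.1, which corrects each array for background and for trends across its surface. Probe positions refer to hg19, per the file headers. Signals in the deposited scanner output are linear intensity values. A deposited table also gives log2 values, with no statement of how the authors made them. They differed from log2 signal minus the 75th percentile by a median of 0.0069 or less per array, which gives their scale and centring, and were used as an alternative. Their column medians were -3.80 (NC1) and -3.60 (miR-891b) in HCT116, and -3.71 and -3.68 in A549. The deposited marks of each spot (well above background, outlier, saturated) were used as other values.

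Spots marked as outliers were left out, log2 processed signal was averaged per probe, and each array's 75th percentile over gene probes was subtracted. With 1 array per group a change of 2-fold or more was called. The fit over both lines used limma 3.58.1 (R 4.3.3) on all genes well above background on at least 2 arrays, and its code was tested on simulated data. The remaining steps ran in Python 3.11.15 (numpy 2.4.6, pandas 2.3.3). Around each spot, within 10 rows and 10 columns, the share of spots well above background was taken over those dim elsewhere, and 10% or more marked an area with stray signal. This marked 8603 of 58201 gene probes. Alternatives were quantile normalization with and without normexp background correction (offset 50), scaling to the median, no filter on dim probes, the mean over probes, the authors' values, probes outside stray areas, and limits of 1.5-fold and 3-fold. Members, role lists, markers and partner lists were chosen with earlier results of these data known. Every measured kinesin could be named, and of the partner lists the genes past 2-fold or the 3 most changed. STARD9, KLC3, INCENP and the HCT116 extremes were named after their values were seen. Promoter and microRNA sequences are from RefSeq (GRCh38.p14).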

Additional observations from a re-analysis of the deposited data

Results flagged for a closer look

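Kinesins measured in both lines were listed here where their changes with miR-891b had opposite signs and each exceeded the median SD between spots of its line. This SD covers spots only, not cultures, and the differences between the lines were not tested. For the division kinesins, the change in A549 minus that in HCT116 was -1.59 for KIF2C, -1.73 for KIF22, -1.71 for KIF4A, -2.13 for KIF14 and -1.23 for KIF20B. For transport kinesins it was 0.38 for KIF3C, -0.50 for KIF5B, -0.75 for KIF13A, 0.64 for KIF16B and 0.77 for KIFC2. For KIF9 it was 1.58, for KIF17 1.68 and for KIF21B 0.23. The signs rest on the brightest probe. With the mean over probes, the KIF22 change was -0.07 in HCT116 and the KIF16B change was -0.31 in A549. The median change of the cytokinesis kinesins differed by -1.72 between the lines (-1.64 in A549, 0.08 in HCT116), and that of the cilium and Hedgehog kinesins by 0.90 (0.66 over 4 genes in A549, -0.24 over 3 in HCT116).

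Antisense genes that overlap kinesins were not used in the comparisons. In A549, KIF9-AS1 was higher with miR-891b by 0.10 and KIF25-AS1 by 0.53. Each exceeded the median SD between spots, which covers spots only and not cultures. KIF25-AS1 was not well above background in HCT116, like KIF25.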

How the results depend on the processing

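The 13 kinesins at least 2-fold lower in A549 were between 10 and 15 in every alternative run at 2-fold or 1.5-fold, and 7 at 3-fold, where the total called was also 7. The 1 higher kinesin became 0 with normexp and quantile normalization and at 3-fold, 2 without the filter on dim probes and 4 at 1.5-fold. In HCT116 the count of called kinesins was 0 in every alternative except at 1.5-fold, where 2 were called, both among the 2 lower. With normexp and quantile normalization, the A549 median change was -0.18 over all kinesins, -1.26 over the division kinesins and -0.00093 over the transport kinesins. Quantile normalization gave -0.40 over all kinesins and 0.0059 over the transport kinesins. The mean over probes gave -1.51 for the division and -0.31 for the transport kinesins. Between the lines with NC1, normexp with quantile normalization gave 7 called kinesins (2 lower and 5 higher in A549), and dropping the filter on dim probes gave 8 lower. The cause of these shifts was not tested. The share of all genes called in each alternative is not given here, so the counts above are not set against a background. The additive limma fit called 0 kinesins in each of the 7 alternatives. Without a filter on dim probes 6 of 43308 genes passed. In that setting 2 of 41 kinesins had an unadjusted limma p under 0.05, where 8.51% of all genes did. No single kinesin past 2-fold in A549 changed the sign of its A549 change in any alternative. KIF17, KIF9 and KIF18B are dim, which limits their values. The limma fit over both lines pairs miR-891b with NC1 within each line. Beyond this pairing by line, no paired analysis was possible because the labels give no replicate numbers.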
